A study of Mus musculus with 6 samples.

Results

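Canonical Polycomb regions are described here: the stretches of the genome that carried peaks of Ring1B, Cbx7 and Suz12 and no peak of RYBP. Peaks of 4 lists were pooled, and peaks that shared at least 1 bp were merged into regions. Of 13390 merged regions, 1533 held the 3 subunits without RYBP (11.4%, 95% Wilson interval 10.9 to 12.0%). They were chosen by the measured peak positions in all 4 lists, so their makeup is a description and was not tested.

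The peaks came from chromatin immunoprecipitation and sequencing (ChIP-seq) of wild-type E14Tg2A mouse embryonic stem cells of strain 129/Ola, grown without feeder cells in serum and leukemia inhibitory factor. There was 1 library for each of the 4 targets, all from the same untreated line. The 2 further libraries made with rabbit IgG were not analysed here. Peak lists hold no expression values, so the cell type was not checked against marker genes.

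Polycomb repressive complexes keep developmental genes silent in embryonic stem cells. PRC2, which contains Suz12, trimethylates a lysine of histone H3, and the chromodomain of Cbx7 binds that mark. Ring1B is the E3 ligase shared by all PRC1 complexes and ubiquitinates histone H2A. Cbx7 belongs to canonical PRC1 and RYBP to variant PRC1, and a single Ring1B molecule carries one or the other. A ChIP-seq peak averages over many cells, so a region with several subunits need not hold them together in 1 cell.

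Canonical regions took up most of what Cbx7 bound and a smaller part of what Ring1B and Suz12 bound. They held 1670 of the 2754 Cbx7 peaks (60.6%, Wilson interval 58.8 to 62.4%), 1673 of the 6982 Ring1B peaks (24.0%, 23.0 to 24.98%) and 1751 of the 8054 Suz12 peaks (21.7%, 20.9 to 22.7%). By length they took a larger part of the Ring1B and Suz12 lists: 34.7% of all bases under Ring1B peaks and 31.5% of those under Suz12 peaks, with 61.6% of those under Cbx7. Of the 2550 merged regions with any Cbx7 peak, 2322 also held Ring1B and Suz12 (91.1%), and 1533 of these lacked RYBP. The neighbouring combinations were rare: without RYBP, 10 regions held Ring1B and Cbx7 but no Suz12, and 12 held Cbx7 and Suz12 but no Ring1B. The lists give positions only, so read depth and peak height are unknown. With 1 library for each target, no difference has a replicate check, and Wilson intervals cover the sampling of regions only, as if regions were independent.

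Most canonical regions spanned a few kilobases. Their median width was 2853 bp, with quartiles of 2154 and 3807 bp and extremes of 687 and 87929 bp, and together they spanned 5.22 Mb. At least 2 kb was spanned by 1243 of them (81.1%), at least 5 kb by 185 (12.1%) and at least 10 kb by 25 (1.63%). Regions of Ring1B and Suz12 without Cbx7 or RYBP, the same class without the canonical reader, had a median of 1654 bp (quartiles 1255.5 and 2138.5 bp), and 5 of 2099 reached 5 kb. Regions of Ring1B, RYBP and Suz12 without Cbx7 lay between, with a median of 2049 bp. Regions with all 4 subunits were wider, with a median of 3242 bp, and 146 of 789 reached 5 kb (18.5%). The order was the same for the bases under Ring1B peaks alone. Medians were 3002 bp in regions with all 4 subunits and 2636 bp in canonical regions. They were 1741 bp with RYBP in place of Cbx7 and 1436 bp in regions of Ring1B and Suz12 without Cbx7 or RYBP. A peak of a further list can join separate Ring1B peaks into 1 region, so these values also depend on the merging. Peak width can follow signal strength as well as the extent of binding, which was not tested.

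**Figure D1:**
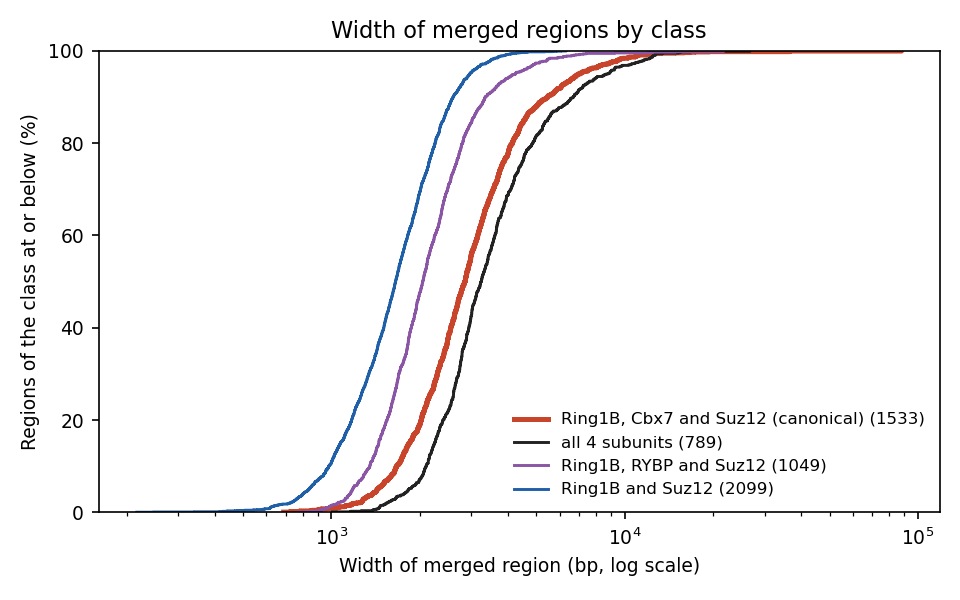
Cumulative share of merged regions (vertical axis, percent) by width (horizontal axis, bp, log scale) in 4 classes, with the number of regions of each class in the key. The canonical curve lies between regions of all 4 subunits, to its right, and regions of Ring1B, RYBP and Suz12, to its left, with medians of 2853, 3242 and 2049 bp.

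The 3 regions closest to the median width show what a typical member looks like. On chromosome 13 from 106233527 to 106236380 (mm9 coordinates as listed, like all positions here), Ring1B covered 85.8%, Suz12 95.4% in 2 peaks and Cbx7 72.1%, and the nearest RYBP peak lay 361 kb away. On chromosome X from 51076968 to 51079821, Ring1B covered 97.3%, Suz12 97.6% and Cbx7 81.1%. On chromosome 7 from 141415336 to 141418185, Suz12 covered the whole region, Ring1B 92.8% and Cbx7 78.9%. In all 3, Cbx7 had the smallest footprint.

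Over all members the Cbx7 footprint was also the smallest in most cases. Ring1B covered a median of 95.9% of a canonical region (quartiles 89.99 and 99.2%) and Suz12 95.7% (89.5 and 99.0%), whereas Cbx7 covered 75.8% (62.6 and 87.0%). Cbx7 covered the fewest bases in 1263 of the 1533 regions (82.4%), Suz12 in 173 and Ring1B in 97. At least 90% of the region lay under Ring1B in 1147 regions, under Suz12 in 1131 and under Cbx7 in 286. The stretch under all 3 subunits had a median length of 1936 bp and took up 72.8% of the region, 15.1% lay under exactly 2 lists and 8.70% under 1 (medians). The shared stretch was under 500 bp in 9 regions, and the smallest was 15 bp.

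Ring1B and Suz12 edges lay close together, and most Cbx7 edges stopped short of both. In 1230 regions (80.2%) each of the 3 lists had exactly 1 peak, which let edges be compared one to one over 2460 edges. The Ring1B edge lay a median of 4 bp outside the Suz12 edge (median -4 bp inside, quartiles -99.25 and 98 bp), and 79.4% of Ring1B edges were within 250 bp of the Suz12 edge. The Cbx7 edge lay a median of 191.5 bp inside the Ring1B edge (quartiles 38 and 417 bp), with 190 bp on the lower-coordinate side and 193 bp on the other. Within 250 bp of the Ring1B edge lay 56.9% of Cbx7 edges. The Cbx7 peak was contained in the Ring1B peak in 851 regions (69.2%), in the Suz12 peak in 775 (63.0%) and in both in 663 (53.9%). The reverse, a Ring1B peak contained in the Cbx7 peak, occurred in 50 (4.07%). Ring1B set 44.7% of the outer edges, Suz12 also 44.7% and Cbx7 11.2%. The median offset between peak centres was 123 bp for Cbx7 and Ring1B, compared with 88 bp for Ring1B and Suz12. A Cbx7 peak contained in the Ring1B peak can be off centre only by the room left at its edges. The offset therefore does not show centring.

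**Figure D2:**
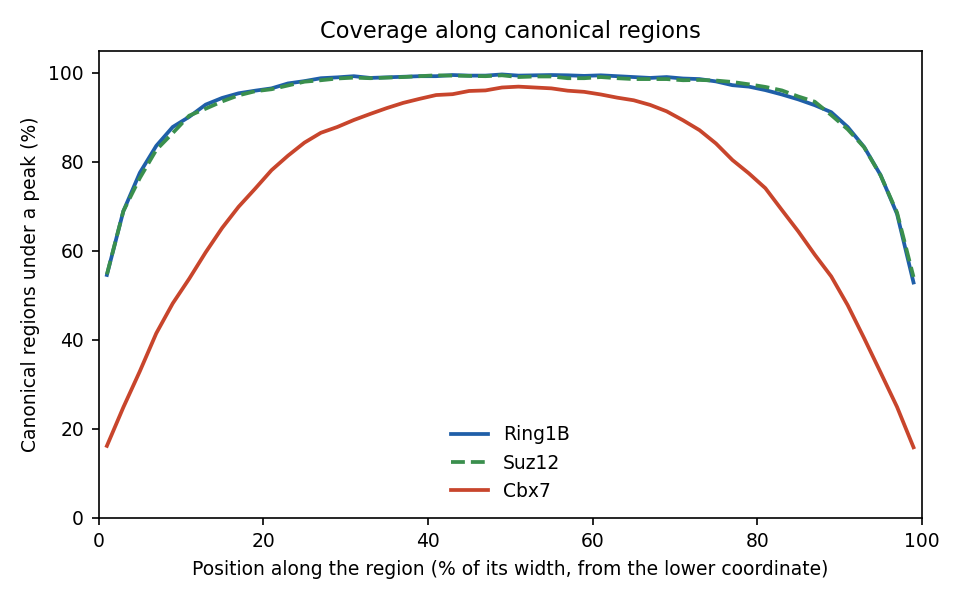
Share of the 1533 canonical regions under a peak of each list (vertical axis, percent) at 50 evenly spaced positions along the region (horizontal axis, percent of its width). The Ring1B and Suz12 lines overlie each other, and the Cbx7 line rises from 16.2% at the lower-coordinate edge to 96.9% at the middle.

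Canonical regions with more than 1 Cbx7 peak were mostly among the widest. More than 1 Cbx7 peak was found in 117 canonical regions (7.63%), with at most 5, while 191 held more than 1 Suz12 peak (12.5%) and 128 more than 1 Ring1B peak (8.35%). With the regions ranked by width into 4 equal groups, 4 of the 384 narrowest held more than 1 Cbx7 peak (1.04%) and 85 of the 383 widest (22.2%). Regions were built by merging peaks, so one with several peaks tends to be wide by construction. Ring1B and Suz12 peaks were not counted by width group, so this was not shown to be particular to Cbx7. The covered share did not follow width in the same way: the median Cbx7 share was 79.2, 74.9, 73.3 and 75.5% from the narrowest to the widest group, and the Ring1B share rose from 94.0 to 97.5%. Whether several narrow peaks reflect separate sites or gaps left by the peak caller was not tested.

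The inner arrangement was much alike where RYBP was also present. Cbx7 covered a median of 80.8% of the Ring1B bases of canonical regions (quartiles 67.8 and 90.5%) and 78.5% in regions with all 4 subunits (65.9 and 88.9%). Suz12 covered 96.3% and 97.3% of the Ring1B bases in the same classes, 95.9% in regions of Ring1B and Suz12 without Cbx7 or RYBP, and 95.9% where RYBP replaced Cbx7. In the other direction the classes spread further: Ring1B covered 96.8% of the Suz12 bases of canonical regions and 97.0% with all 4 subunits. It covered 92.8% with RYBP in place of Cbx7 and 90.8% in regions of Ring1B and Suz12 without Cbx7 or RYBP. Regions without Cbx7 were also narrower, so an unmatched margin of the same length is a larger part of them, and these shares were not tested.

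The 5 widest regions included 3 that were a single peak in each list. At the top, a stretch of chromosome 8 from 126060836 to 126148765 (87.9 kb) was covered to at least 99.7% by each of the 3 lists, in 1 peak each. The next 2, on chromosome 6 from 47686940 to 47723612 (36.7 kb) and from 47600612 to 47637156 (36.5 kb), were also 1 peak in each list, with Cbx7 on 80.2 and 98.02%. No other canonical region exceeded 30 kb, and these 3 made up 3.09% of all canonical bases. Nearest RYBP peaks lay 15.1, 1.22 and 54.6 kb from them. Broad binding there cannot be told apart, without read counts, from segments with extra copies in the cells. The fourth widest, on chromosome 2 from 33483254 to 33502624 (19.4 kb), had 1 Ring1B, 3 Cbx7 and 2 Suz12 peaks, and the fifth, on chromosome 5 from 120873830 to 120891155 (17.3 kb), had 2, 5 and 3.

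Canonical regions were found at all distances from RYBP. The median distance from the edge of a canonical region to the edge of the nearest RYBP peak was 128 kb, with quartiles of 28.3 and 552 kb. Within 1 kb of a RYBP peak lay 16 regions (1.04%, Wilson interval 0.643 to 1.69%), within 10 kb 209 (13.6%, 12.0 to 15.4%) and within 100 kb 709 (46.2%, 43.8 to 48.8%), while 73.1% lay within 500 kb. Regions of Ring1B and Suz12 without Cbx7 or RYBP had a median distance of 80.6 kb. The 2 classes had close shares within 10 kb (13.6 and 13.7%) and separated further out, with 54.5% of the second class within 100 kb and 82.6% within 500 kb. The values of regions with Ring1B only (median 101 kb) and Suz12 only (76.2 kb) were also below the canonical median. The 95% interval of the median was 88.6 to 118 kb for Ring1B only, which overlaps the canonical 107 to 145 kb. For Suz12 only it was 68.6 to 83.7 kb. At 10 kb these 2 classes stood at 13.2 and 14.0%.

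**Figure D3:**
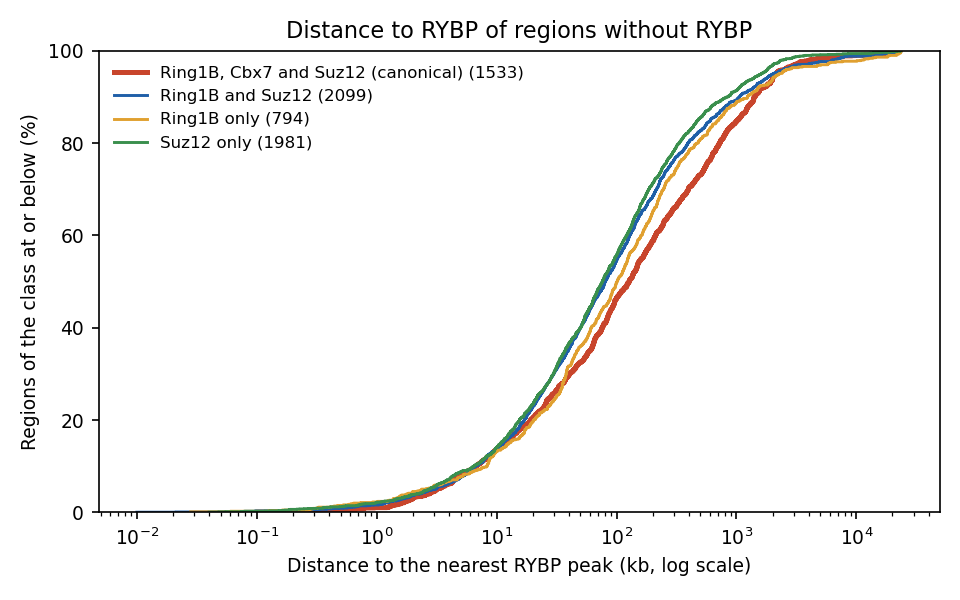
Cumulative share of regions (vertical axis, percent) by distance to the nearest RYBP peak (horizontal axis, kb, log scale) in 4 classes without a RYBP peak; the key gives the number of regions on chromosomes that have a RYBP peak. The 4 lines lie between 13.2 and 14.0% at 10 kb. The canonical line is the lowest at 1 kb, with 1.04%, and at 100 kb, with 46.2%.

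The canonical median was also the longer one on autosomes, at matched width and with 1 region per group of neighbours, but not on X. RYBP peaks were scarce on X, where the 69 canonical regions had a median distance of 3119 kb and the closest lay 53.2 kb from a RYBP peak. The 101 regions of Ring1B and Suz12 on X had a longer median, 4721 kb. On autosomes the medians were 110 kb (109.7) for canonical regions and 72.0 kb for regions of Ring1B and Suz12. Among regions between 2154 and 3807 bp wide, the central range of the canonical class, the medians were 146 kb over 767 canonical regions and 54.7 kb over 480 regions of Ring1B and Suz12. That range leaves out the 383 widest canonical regions, with a median of 89836 bp, and most of the 384 narrowest, with 134388 bp. Counting only the widest region of each group of neighbours, 148 and 92.8 kb were found. The absence of RYBP chose both classes, and these distances are given without a test.

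The kind of region that held the nearest RYBP peak was then counted. The nearest RYBP peak of a canonical region was in a region with all 4 subunits in 377 cases (24.6%, Wilson interval 22.5 to 26.8%), whereas such regions hold 12.4% of all RYBP peaks. It was in a region with RYBP only in 718 cases (46.8%), compared with 61.8% of all RYBP peaks. For regions of Ring1B and Suz12 the same 2 shares were 18.5 and 52.7%.

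The border between the canonical class and regions with all 4 subunits can be seen in its closest members. Closest to RYBP from outside was a region on chromosome 11 from 57640257 to 57644455, 103 bp from a RYBP peak, followed by one on chromosome 11 from 48666887 to 48669352 at 364 bp and one on chromosome 7 from 75096649 to 75099660 at 381 bp. Just across the border, the smallest RYBP overlaps among regions with all 4 subunits were 95 bp on chromosome 13 from 91599668 to 91602408 and 325 bp on chromosome 19 from 45148862 to 45156069. The third smallest was 548 bp, on chromosome 9 from 89773938 to 89777033. There the whole RYBP peak, a narrow one, lay inside peaks of the other lists, so that region is not a border case. Few regions were near the border: 8 canonical regions lay within 500 bp of a RYBP peak, and 1 of 789 regions with all 4 subunits had an overlap under 100 bp. In 9 of the 789 the RYBP peak shared no base with a Cbx7 peak (1.14%). At the other extreme, the 3 canonical regions farthest from RYBP lay on X, 22.6, 22.6 and 21.7 Mb away, and the farthest on an autosome lay on chromosome 14 from 94288908 to 94291193, 5.15 Mb away.

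Some canonical regions lay close together and most lay alone. The median distance to the nearest other canonical region was 352 kb (quartiles 8.75 and 1086 kb), compared with 221 kb for regions of Ring1B and Suz12, 312 kb with RYBP in place of Cbx7 and 529 kb with all 4 subunits. At short range the order was another. Within 5 kb of another canonical region lay 350 of them (22.8%, Wilson interval 20.8 to 25.0%), and within 50 kb 477 (31.1%, 28.8 to 33.5%). Regions of Ring1B and Suz12, which were more numerous, had another of their class within 5 kb in 8.77% (7.63 to 10.1%) and within 50 kb in 24.6%. For regions with all 4 subunits the shares were 4.56% (3.31 to 6.25%) and 16.3%, and with RYBP in place of Cbx7 4.004% and 15.5%. At 100 kb the canonical class and regions of Ring1B and Suz12 were close, at 36.6 and 34.1%. A larger class has closer neighbours by its number alone, and no comparison with an expected spacing was made. Peaks up to 1 kb apart, when merged, lowered the share within 5 kb to 11.0% for canonical regions and to 3.92% for regions of Ring1B and Suz12, and the share within 50 kb to 19.4 and 17.6%.

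**Figure D4:**
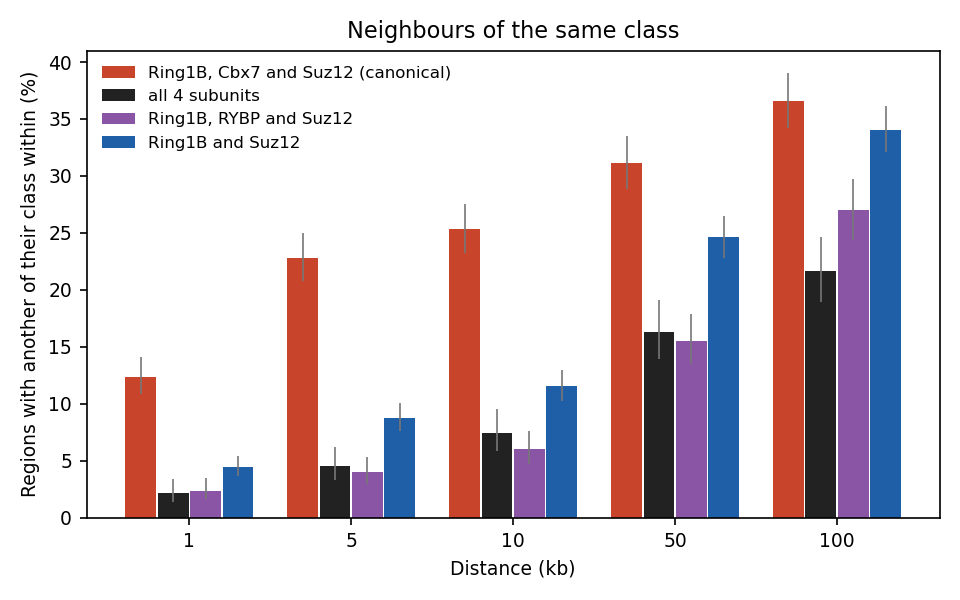
Share of regions with another region of the same class (vertical axis, percent) within 1, 5, 10, 50 or 100 kb (horizontal axis) in 4 classes; bars start at 0 and lines are 95% Wilson intervals over regions. Canonical bars are the tallest at every distance, 22.8% at 5 kb and 36.6% at 100 kb, where regions of Ring1B and Suz12 reach 34.1%.

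Chained at gaps of up to 50 kb, the 1533 regions formed 1056 lone regions and 167 clusters of 2 or more. Of the clusters, 108 were pairs, 59 had 3 or more members and 16 had 5 or more. Their median span was 14.5 kb (quartiles 9.69 and 26.6 kb), of which a median of 65.5% was canonical region. The 310 gaps between consecutive members had a median of 2356 bp, and 104 were of up to 1 kb (33.5%). In 199 gaps there was no other merged region (64.2%). A RYBP peak lay in 35 gaps (11.3%), and 33 of the 310 gaps held a region with all 4 subunits. Any RYBP peak between the first and last base was found in 29 of the 167 clusters (17.4%).

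The Cbx7 share and the distance to RYBP were also read separately for clustered and lone members. Cbx7 covered a median of 80.5% of a clustered region (quartiles 65.7 and 91.2%) and 74.4% of a lone one (61.4 and 85.4%). Median widths were 2979 bp for clustered and 2802.5 bp for lone regions, and the upper quartiles were further apart, at 4442 and 3642 bp. Clustered regions lay closer to RYBP, with a median of 68.5 kb compared with 161 kb for lone regions. Members of a cluster share their surroundings and are not independent, so these differences were not tested.

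The region next to a canonical region was another canonical region more often than any other kind, in 347 of 1533 cases (22.6%, Wilson interval 20.6 to 24.8%), and canonical regions make up 11.4% of all merged regions. Regions of Ring1B and Suz12 followed closely, with 298 cases (19.4%, 17.5 to 21.5%). Another canonical region lay within 1 kb of 190 of the 1533 (12.4%), where 1 stretch may have been split into several peaks. The kind of nearest region was not recounted with peaks up to 1 kb apart merged, so its order depends on the merging. The other classes also lay next to their own kind more often than their share of merged regions: 20.2% against 15.7% for regions of Ring1B and Suz12, 11.9% against 7.83% with RYBP in place of Cbx7, and 8.87% against 5.89% with all 4 subunits. Regions with RYBP only were next in 253 cases (16.5%) and make up 31.7% of merged regions. Regions with RYBP, Ring1B and Suz12 were next in 4.76% and make up 7.83%. For that class itself, the nearest region held RYBP only in 34.1% and was canonical in 6.48% of 1049 cases. For regions with all 4 subunits, the nearest was canonical in 12.5% and held RYBP only in 25.7%.

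The 4 largest clusters overlapped the places where, as background knowledge that was not read from the files, mm9 holds the 4 Hox gene clusters, which encode the transcription factors that pattern the body axis and are textbook Polycomb targets. The largest, at HoxC on chromosome 15 from 102739852 to 102934835, held 20 canonical regions that made up 36.6% of its 195 kb. It had 39 Ring1B, 43 Suz12 and 26 Cbx7 peaks, and 2 RYBP peaks, each in a region with all 4 subunits. At HoxD, on chromosome 2 from 74492668 to 74592133, 13 canonical regions made up 63.1% of 99.5 kb, again with 2 regions of all 4 subunits between them. At HoxB, on chromosome 11 from 96112097 to 96229009, 10 canonical regions made up 55.6% of 117 kb, and 1 RYBP peak was listed. HoxA, on chromosome 6 from 52106382 to 52273981, differed: its 9 canonical regions made up 22.2% of 168 kb, and 12 RYBP peaks in 9 regions with all 4 subunits interrupted them. RYBP covered 10.8% of that cluster and between 1.10 and 2.204% of the other 3. Regions with RYBP are outside the class by rule, so 22.2% does not measure how much Ring1B, Cbx7 and Suz12 covered at HoxA. These 3 lists covered 61.7, 45.6 and 58.4% of HoxA. They covered 46.2, 31.5 and 46.2% of HoxC, 69.6, 54.6 and 69.0% of HoxD, and 68.1, 40.1 and 68.7% of HoxB. The fifth cluster, on chromosome 7 from 77424524 to 77516261, had 9 canonical regions and no RYBP peak, the nearest lying 1934 kb away. Clusters were ranked by their number of canonical regions. HoxA and the chromosome 7 cluster tied at 9, and HoxA was ranked higher by its bases in canonical regions, 37.2 compared with 32.0 kb. The 4 largest clusters held 52 of the 1533 regions (3.39%).

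**Figure D5:**
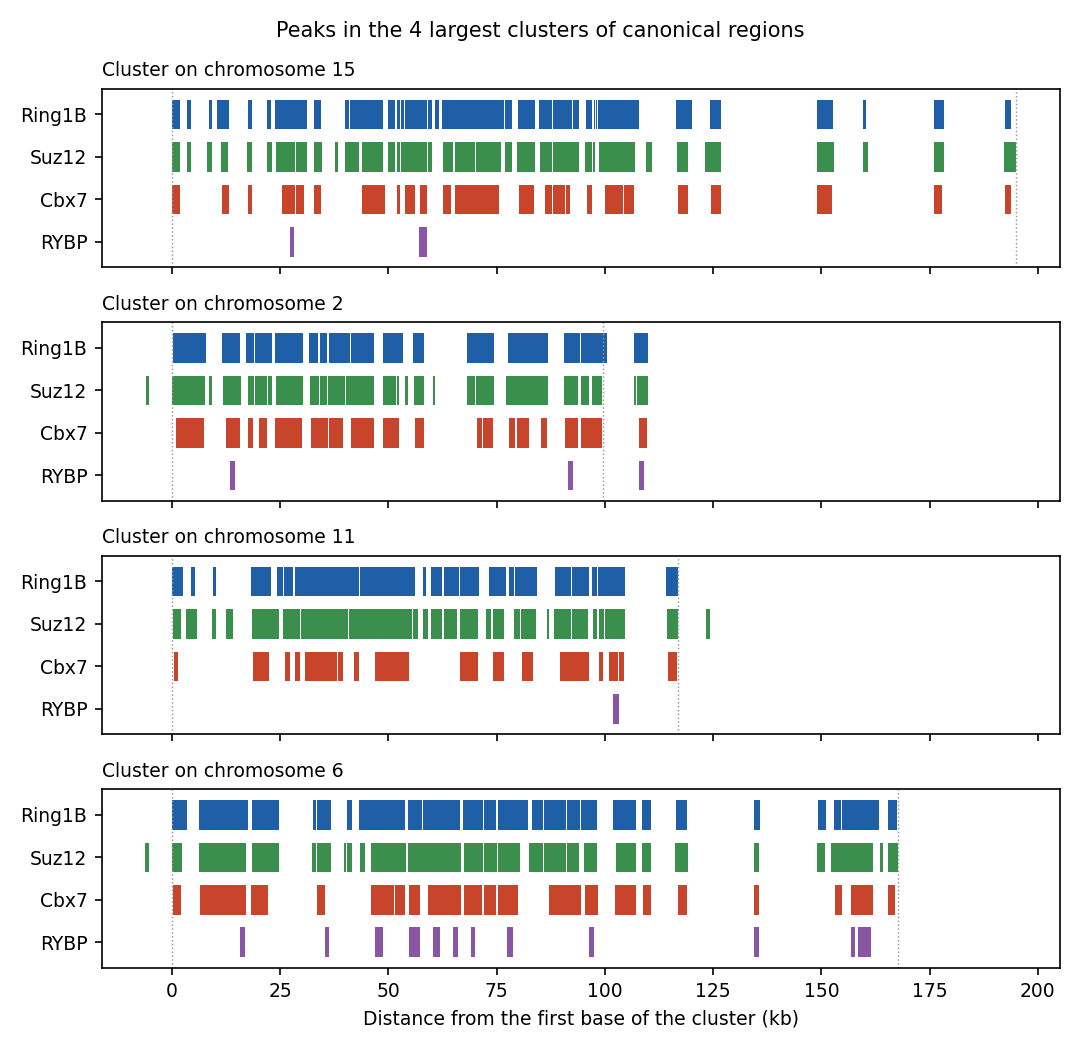
Peaks of the 4 lists in the 4 largest clusters of canonical regions and 10 kb to either side; the horizontal axis is the distance from the first base of each cluster in kb, bars are peaks and dotted lines mark the cluster's ends. The cluster on chromosome 6 holds 12 RYBP peaks, and those on chromosomes 15, 2 and 11 hold 2, 2 and 1.

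Across chromosomes, the canonical share of merged regions was highest on X. Canonical regions made up 69 of 313 merged regions of X (22.0%, Wilson interval 17.8 to 27.0%) and 1464 of 13060 on autosomes (11.2%, 10.7 to 11.8%). Merged regions with RYBP are part of both totals, and X had 2.34% of all merged regions but 0.349% of the RYBP peaks. This contrast therefore depends on the RYBP list that also defined the class. Regions with RYBP only made up 31.7% of all merged regions, and X, with 24 RYBP peaks, can hold few of them. The share among regions without RYBP was not computed, so 22.0 and 11.2% do not show an excess of canonical regions on X. On X, 69 of the 70 regions with Ring1B, Cbx7 and Suz12 lacked RYBP (98.6%, 92.3 to 99.7%), compared with 65.0% of 2252 on autosomes (63.0 to 67.0%). The autosomes ranged from 47.1% on chromosome 6 (64 of 136, interval 38.9 to 55.4%) and 52.7% on chromosome 11 to 74.4% on chromosome 14 (58 of 78, 63.7 to 82.7%). The RYBP list had 24 peaks on X, 635 on chromosome 6, 698 on chromosome 11 and 287 on chromosome 14. Without read counts, fewer RYBP reads from X cannot be told apart from less binding there. Chromosome 2 had the most canonical regions, 130, and chromosome 13 had the most clusters of 3 or more, 8. No canonical region was found among the 17 merged regions of chromosome Y.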

How the data were processed

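The authors deposited 1 peak list for each of Ring1B, Cbx7, Suz12 and RYBP, holding chromosome, start and end in base pairs, a name, and no score, height or p. Lists were assigned to samples by the target in that name. The tools named are Bowtie (0.12.7) and MACS (1.3.7.1) and the build is mm9, per the submitters' processing notes. What each tool did, the control library, the threshold and any pooling were not given in the sources used here. Peak names end in 5 in the RYBP list and in 10 elsewhere, which is not explained. If it is a threshold, RYBP was called at another stringency, which would change which regions lack RYBP.

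Width is end minus start, and distances run edge to edge. Medians carry quartiles, and shares 95% Wilson intervals. No test was made, because each target had 1 library and the regions were chosen from the same lists. Members, classes and settings were chosen with earlier results of these data known. Regions named are the 5 widest, the 3 nearest the median width, the 3 nearest to and farthest from RYBP, the 5 largest clusters and the 3 regions of all 4 subunits with the least RYBP overlap. The autosomal region farthest from RYBP was added after values were seen. No mm9 genome or annotation was used, so no genes were assigned and no sequence is shown. Python 3.11.15, numpy 2.4.6, pandas 2.3.3, SciPy 1.17.1 and matplotlib 3.10.9 were used, and the functions were tested on simulated data.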

Additional observations from a re-analysis of the deposited data

How the results depend on the processing

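Of 79 values recomputed under 9 alternatives, 52 stayed within the 95% interval of the reported value or, for the number of regions, within 1.5 times. Joining peaks only at 50% of the shorter, leaving out X and Y, requiring no RYBP peak within 1 kb and leaving out the 3 regions over 30 kb moved no value outside that range. Merging peaks up to 1 kb apart gave a median width of 2988 bp, Ring1B, Cbx7 and Suz12 shares of 94.3, 72.4 and 94.6%, a median RYBP distance of 145 kb, 9.42% of regions within 10 kb of RYBP and 19.4% within 50 kb of another. Keeping peaks of at least median width gave 935 regions, a width of 3646 bp, shares of 97.1, 80.8 and 96.2%, a distance of 319.6 kb, 8.34%, 27.4% and 2.46% on X. Lists of equal length by width gave a width of 3401.5 bp, Ring1B and Suz12 shares of 96.8 and 96.7%, 367 kb, 6.85%, 26.2% and 3.19% on X. The last 2 settings shorten the RYBP list, which lengthens distances to it. Added after seeing the data, the widest region of each cluster gave 2923 bp, 148 kb and 11.1%, and leaving out the 4 largest clusters gave 28.7% within 50 kb of another. The share on X without X, and neighbours among 1 region per cluster, have no value. The canonical median RYBP distance was above that of regions of Ring1B and Suz12 in the 6 settings where both were computed (both merging choices, no X and Y, both width choices and the widest of each cluster), from 110 (109.7) against 72.0 kb without X and Y to 367 against 136 kb with equal lists. No paired analysis was possible because each target had 1 library and no test was made. Read depth is unknown, so weak RYBP binding below the calling threshold in these regions cannot be seen.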
